A study of Mus musculus with 6 samples.

Results

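Vesicle tethers are the proteins that first catch a transport vesicle at the membrane it is bound for, before the SNARE proteins fuse the membranes. Transcripts of 37 tether genes were measured among 18820 genes in primary mouse hepatocytes made to express the nuclear fragment of CREBH. CREBH, encoded by Creb3l3, is a liver transcription factor held in the endoplasmic reticulum until cleavage releases its N-terminal part to the nucleus. The genes were chosen by name, with earlier results of these data known. They comprised every measured subunit of TRAPP (15 genes), of the COG complex (6 genes) and of the exocyst (7 genes), and 9 golgins or genes of golgin name. Cog5, Cog8 and Exoc5 had only array features annotated to several genes and were not analysed here.

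Golgins are long coiled-coil proteins that reach out from the Golgi and capture vesicles. COG is a complex with a pair of lobes that tethers vesicles moving backwards between Golgi cisternae, and its loss disturbs glycosylation. TRAPP complexes tether vesicles on their way into and through the Golgi, and they switch on small GTPases of the Rab family. The exocyst acts at the far end of the route, where it holds secretory vesicles at the plasma membrane. In hepatocytes this route carries the secreted plasma proteins and lipoproteins.

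The cells came from male wildtype C57BL/6J mice of 8 to 10 weeks and received adenovirus at a multiplicity of infection of 100. One group of 3 dishes received Ad-GFP, which carries green fluorescent protein, and the other group of 3 dishes received Ad-nuclear CREBH. RNA was taken after 24 h and each dish was hybridized to its own array. Both groups therefore carried adenovirus, and CREBH was forced from a viral vector whose cytomegalovirus promoter does not depend on cell type. The labels do not say whether the dishes held cells of different animals, and p-values therefore reflect the spread from dish to dish alone. Values are log2 expression values, so a difference of 1 is a 2-fold change, and they are not compared between genes, because each gene was read by its own probes. In such bulk RNA, fewer cells of a type and less RNA per cell cannot be told apart.

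Creb3l3 itself was higher on the Ad-nuclear CREBH arrays by 2.10 on the log2 scale (SE 0.19). Transcripts from the vector and from the cells' own gene were not told apart in this value. The 6 hepatocyte markers had a mean level of 11.65 to 11.86 on the Ad-GFP arrays and 11.69 to 11.76 on the Ad-nuclear CREBH arrays. Of these, Apoa1 rose by 0.74 (adjusted p = 5.6e-05), Ahsg fell by 0.75 (adjusted p = 0.00104) and the other 4 did not pass. In the hepatocyte list 2 markers fell with array weights, a block for replicate number, quantile normalization, cyclic loess or without Ad-GFP replicate 1. Without both arrays numbered 1 the number that fell was 3. The mean of 6 macrophage markers was 6.73 to 6.86 with Ad-GFP and 6.06 to 6.39 with Ad-nuclear CREBH. Of these 6, Cd14 fell by 3.07 on the log2 scale, Cd68 and Lyz2 also fell and Csf1r rose, while the Kupffer cell markers Clec4f and Adgre1 were at 3.50 to 5.26 on every array. The Lyz2 call was lost under 3 other scalings (adjusted p of 0.0953 to 0.139), and those of Lyz2, Cd68 and Csf1r did not hold in every fit with 1 array left out. The means of 5 endothelial, 6 stellate, 4 cholangiocyte and 3 lymphocyte markers overlapped between the groups. Of these 18 genes, Epcam rose and Krt19 fell. The stellate marker Col1a1 was at 5.25, 4.90 and 4.77 with Ad-GFP and 5.02, 7.30 and 7.51 with Ad-nuclear CREBH. Its difference of 1.63 did not pass (adjusted p = 0.0619). In the stellate list 1 marker rose under each of 3 other scalings, while 2 rose and 1 fell with array weights. Without Ad-GFP replicate 1, 0 rose and 1 fell, and without Ad-nuclear CREBH replicate 1, 2 rose and 0 fell. The part of these cells in the tether results was not tested. The arrays numbered 1 stood somewhat apart, with a mean correlation to their own group of 0.986 for Ad-GFP replicate 1 against 0.991 for the others, and of 0.991 for Ad-nuclear CREBH replicate 1 against 0.994.

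Changes were called at an adjusted p under 0.05 in limma, a linear model fitted to all 18820 genes with Benjamini-Hochberg adjustment over all of them. Of the 37 tether genes, 13 rose, 6 fell and 18 did not pass. Over all genes 19.2% rose and 18.2% fell, so the 13 risers of 37 are to be read against a background in which a large share of the transcriptome moved. Among the golgins 8 of 9 rose, and in COG 4 of 6 rose. In TRAPP 1 of 15 rose and 3 fell, and in the exocyst 3 of 7 fell. No golgin or COG subunit fell and no exocyst subunit rose. The median log2 fold change was 1.08 for the golgins, 0.82 for COG, -0.14 for TRAPP and -0.43 for the exocyst, beside 0.039 over all genes.

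The order of the arrays, before any test, can be read in the same way. All 3 Ad-nuclear CREBH arrays lay above all 3 Ad-GFP arrays for 8 of 9 golgins, 4 of 6 COG subunits, 2 of 15 TRAPP genes and none of the 7 exocyst subunits, against 26.2% of all genes. They lay below for none of the golgins or COG subunits, 6 TRAPP genes and 4 exocyst subunits, against 23.1% of all genes. The study also used a stricter rule, with thresholds on p, fold change and expression value. It was read here as an unadjusted p under 0.001, more than 2 or less than 0.5 times the control level, and a mean above 300 on the linear scale in either group, since the methods do not say which samples had to exceed that value. By that reading 7 tether genes were higher (Golga3, Golga4, Golgb1, Uso1, Cog6, Cog2 and Cog3) against 4.91% of all genes, and 1 was lower (Exoc4) against 3.10%. No TRAPP gene met it.

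**Figure D1:**
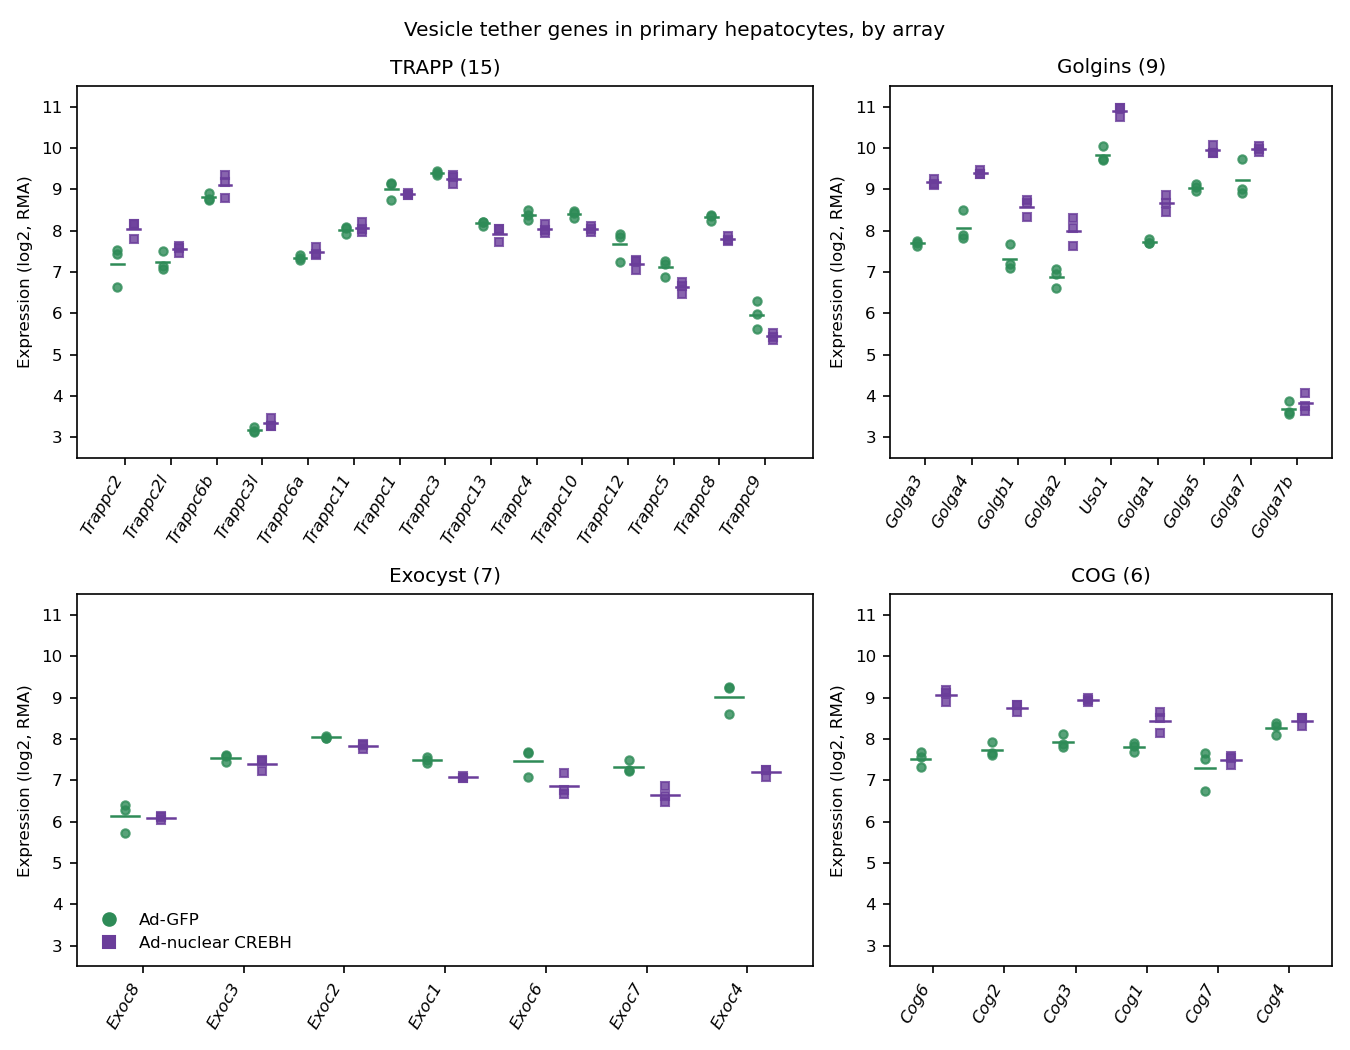
Log2 expression (RMA, vertical axis) of each of the 37 tether genes on each array, in 1 panel per group, with green circles for the 3 Ad-GFP arrays, purple squares for the 3 Ad-nuclear CREBH arrays and a line at each group mean. The squares lie above the circles for 8 of 9 golgins and 4 of 6 COG subunits, and for Exoc4 they lie well below, at 7.08 to 7.25 against 8.59 to 9.26.

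Of the 9 genes in the golgin group, Golga3, a golgin of the Golgi stack, rose the most. Its log2 level was 7.75, 7.63 and 7.70 on the Ad-GFP arrays and 9.10, 9.26 and 9.14 on the Ad-nuclear CREBH arrays. The groups were separated by far more than their spread, and Golga3 rose by 1.48 on the log2 scale (SE 0.12, adjusted p = 4.7e-05), or 2.78-fold. Golga4, which is recruited to trans-Golgi membranes by the GTPase Arl1, had levels of 8.49, 7.83 and 7.90 with Ad-GFP and 9.37, 9.48 and 9.36 with Ad-nuclear CREBH. It rose by 1.33 (SE 0.18, adjusted p = 7.1e-04), and its Ad-GFP replicate 1 was the highest control, still below every Ad-nuclear CREBH array. Golgb1 encodes giantin, a golgin anchored in the membrane of the Golgi rim. It read 7.67, 7.10 and 7.19 against 8.33, 8.67 and 8.74, a rise of 1.26 (SE 0.19, adjusted p = 0.0012).

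Golga2 encodes the cis-Golgi golgin known as GM130, which binds the tether encoded by Uso1. Golga2 was at 6.61, 7.07 and 6.95 with Ad-GFP and at 7.63, 8.31 and 8.07 with Ad-nuclear CREBH. It rose by 1.13 (SE 0.21, adjusted p = 0.00347), with replicate 1 the lowest in both groups. Uso1, whose product catches vesicles arriving from the endoplasmic reticulum, read 10.04, 9.70 and 9.73 against 10.76, 10.97 and 10.97 and rose by 1.08 (SE 0.12, adjusted p = 2.7e-04). The partners on the cis side of the Golgi thus both rose, by 2.18-fold and 2.11-fold.

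Golga1, a trans-Golgi golgin that like Golga4 is recruited by Arl1, rose by 0.93 (SE 0.14, adjusted p = 0.00115). Golga5, a membrane-anchored golgin of the Golgi rim, rose by 0.90 (SE 0.11, adjusted p = 3.8e-04). Neither had an Ad-nuclear CREBH array within the Ad-GFP range. These 7 genes passed in each of the 6 fits that left out 1 array.

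The remaining 2 genes carry the golgin name without being long coiled-coil tethers. Golga7 is the partner of a palmitoyltransferase, an enzyme that attaches lipid to proteins such as Ras. It was at 9.74, 8.90 and 9.02 with Ad-GFP and 10.04, 9.97 and 9.90 with Ad-nuclear CREBH, a rise of 0.75 (SE 0.21, adjusted p = 0.0223). The call rested on a narrow margin, since it passed in 1 of the 6 fits with 1 array left out, the one without Ad-GFP replicate 1, and its adjusted p reached 0.0771 without Ad-GFP replicate 3. It was also lost with quantile normalization (adjusted p = 0.0825) and with the mean of the gene's features (adjusted p = 0.0766). Of its other array features, both dim, 1 rose by 0.51 (adjusted p = 0.0261) and 1 differed by 0.07 (adjusted p = 0.839). Its paralog Golga7b read 3.87, 3.57 and 3.62 against 3.63, 3.75 and 4.08, levels under the median of all genes of 5.243 on every array, and differed by 0.13 (95% interval -0.23 to 0.49, adjusted p = 0.573).

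Promoter sequence is shown for the genes of each group that rose the most and have an entry in the promoter table used, taken from RefSeq (GRCm38.p6) as the 250 bases before the annotated start, 5′ to 3′ on the gene's strand. Capitals mark a match to a motif searched, on either strand. The Golga3 promoter lies at chr5:110176607-110176856 on the plus strand and that of Golga2 at chr2:32288076-32288325 on the plus strand, and neither held a match.
Golga3: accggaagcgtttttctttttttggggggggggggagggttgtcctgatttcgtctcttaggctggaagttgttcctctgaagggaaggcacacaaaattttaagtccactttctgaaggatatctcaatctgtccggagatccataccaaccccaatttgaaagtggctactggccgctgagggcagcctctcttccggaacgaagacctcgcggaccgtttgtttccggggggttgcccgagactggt
Golga2: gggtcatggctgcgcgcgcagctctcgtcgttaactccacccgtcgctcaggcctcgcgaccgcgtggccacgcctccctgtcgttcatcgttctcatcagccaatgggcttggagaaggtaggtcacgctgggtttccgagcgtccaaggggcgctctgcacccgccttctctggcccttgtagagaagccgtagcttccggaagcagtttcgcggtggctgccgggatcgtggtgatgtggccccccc

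In COG, 4 of the 6 subunits measured rose, beside 19.2% of all genes. Cog1, Cog2 and Cog3 belong to lobe A and Cog6 to lobe B, of which only Cog6 and Cog7 were analysed here. Cog6, the lobe B subunit that rose, moved the most of all 37 genes in the upward direction. It was at 7.31, 7.57 and 7.68 on the Ad-GFP arrays and at 8.89, 9.12 and 9.19 on the Ad-nuclear CREBH arrays. Its log2 fold change was 1.54 (SE 0.15, adjusted p = 1.2e-04), or 2.92-fold, with a gap between the groups of over 1 log2 unit. Cog2 and Cog3 are core subunits of lobe A. Cog2 read 7.92, 7.67 and 7.61 against 8.64, 8.81 and 8.82 and rose by 1.02 (SE 0.14, adjusted p = 6.0e-04). Cog3 read 8.11, 7.80 and 7.87 against 8.89, 8.99 and 8.94 and rose by 1.01 (SE 0.13, adjusted p = 4.6e-04). These 3 genes passed in all 6 fits with 1 array left out. A second Cog3 feature, close to the level of dim genes, differed by 0.32 (adjusted p = 0.14), and the mean of both features gave Cog3 a rise of 0.67.

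Cog1, which bridges the lobes, rose less. Its levels were 7.69, 7.90 and 7.83 with Ad-GFP and 8.15, 8.66 and 8.51 with Ad-nuclear CREBH, a rise of 0.63 (SE 0.16, adjusted p = 0.015). It lost its call without Ad-nuclear CREBH replicate 2 (adjusted p = 0.0709) or replicate 3 (adjusted p = 0.0643). The 2 subunits that did not pass overlapped between the groups. Cog4, a lobe A subunit that contacts SNARE proteins, was at 8.10, 8.30 and 8.38 against 8.51, 8.50 and 8.32, a difference of 0.19 (95% interval -0.12 to 0.49, adjusted p = 0.323). Cog7, in lobe B, was at 6.75, 7.65 and 7.51 against 7.37, 7.54 and 7.59, a difference of 0.20 (95% interval -0.35 to 0.75, adjusted p = 0.572). Ad-GFP replicate 1 was the lowest Cog7 array, and without it the difference was -0.08.

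The promoters of Cog6, at chr3:53017224-53017473 on the minus strand, and Cog2, at chr8:124520517-124520766 on the plus strand, stand here as those of the subunits that rose the most. The capitals in Cog2 mark TGACG, the core of the cAMP response element that factors of the CREB family bind.
Cog6: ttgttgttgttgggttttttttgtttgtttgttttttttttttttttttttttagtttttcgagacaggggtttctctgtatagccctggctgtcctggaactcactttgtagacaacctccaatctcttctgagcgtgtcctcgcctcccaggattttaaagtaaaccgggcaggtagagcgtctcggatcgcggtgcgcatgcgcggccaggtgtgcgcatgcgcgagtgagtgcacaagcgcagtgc
Cog2: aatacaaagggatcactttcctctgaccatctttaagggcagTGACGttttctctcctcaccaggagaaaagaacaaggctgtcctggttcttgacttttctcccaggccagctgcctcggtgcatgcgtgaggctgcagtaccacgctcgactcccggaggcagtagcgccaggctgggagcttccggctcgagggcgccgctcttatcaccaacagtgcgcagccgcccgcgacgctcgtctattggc

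TRAPP genes gave small differences in both directions, from -0.53 to 0.84. They are described by their place in the complexes, beginning with the core that TRAPPII and TRAPPIII share. Trappc2 encodes sedlin, a core adaptor mutated in a heritable skeletal dysplasia. It was at 6.64, 7.54 and 7.43 on the Ad-GFP arrays and at 7.80, 8.16 and 8.16 on the Ad-nuclear CREBH arrays. It was the single TRAPP gene to rise, by 0.84 (SE 0.25, adjusted p = 0.0283), and a second feature of it rose by 0.94 (adjusted p = 0.0226). Ad-GFP replicate 1 was the lowest array, and without it the Trappc2 difference was 0.56. Without Ad-nuclear CREBH replicate 2 or 3 the call was lost (adjusted p = 0.0979 and 0.0969).

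The paralog of Trappc2, Trappc2l, read 7.51, 7.08 and 7.14 against 7.64, 7.58 and 7.45, a difference of 0.31 (95% interval -0.05 to 0.68, adjusted p = 0.166). Trappc3, a core subunit modified with lipid, was at 9.34, 9.45 and 9.40 against 9.13, 9.30 and 9.35, and differed by -0.14 (adjusted p = 0.382). Its paralog Trappc3l was at 3.13 to 3.25 with Ad-GFP and 3.28 to 3.47 with Ad-nuclear CREBH, a dim gene whose groups did not overlap but whose difference of 0.17 had an adjusted p of 0.271. The alternative core subunits Trappc6a and Trappc6b gave close values. Trappc6a was at 7.33, 7.41 and 7.28 against 7.60, 7.40 and 7.44, a difference of 0.14 (adjusted p = 0.454). Trappc6b was at 8.76, 8.90 and 8.75 against 8.80, 9.35 and 9.17, a difference of 0.30 (adjusted p = 0.176).

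Another core subunit, Trappc5, fell slightly. It read 6.87, 7.20 and 7.27 against 6.65, 6.76 and 6.48, a change of -0.48 (SE 0.16, adjusted p = 0.0478). With 1 array left out it passed in 1 of 6 fits, the one without Ad-GFP replicate 1, and its adjusted p was 0.17 without Ad-nuclear CREBH replicate 3. The call was also lost with arrays centred on their median (adjusted p = 0.091), quantile normalization (adjusted p = 0.0539) and cyclic loess (adjusted p = 0.0985). The core subunits Trappc1 and Trappc4, which form part of the surface that acts on Rab1, differed by -0.14 (adjusted p = 0.5) and -0.34 (adjusted p = 0.0769).

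Among subunits that belong to 1 complex, the falls were again small. Trappc8, a large TRAPPIII subunit, was at 8.36, 8.39 and 8.24 on the Ad-GFP arrays and at 7.78, 7.76 and 7.87 on the Ad-nuclear CREBH arrays. It fell by 0.52 on the log2 scale (SE 0.12, adjusted p = 0.00895), to 0.695 of the control level, and was the TRAPP gene that passed in all 6 fits with 1 array left out. The other TRAPPIII subunits did not pass. Trappc11 differed by 0.05 (adjusted p = 0.8), Trappc12 by -0.47 (adjusted p = 0.106) and Trappc13 by -0.25 (adjusted p = 0.189). Trappc10, a TRAPPII subunit, was at 8.42, 8.47 and 8.31 against 7.96, 8.11 and 8.03, and fell by 0.36 (SE 0.12, adjusted p = 0.0431). Its call held in 1 of the 6 fits with 1 array left out, the one without Ad-GFP replicate 1, and its adjusted p was 0.147 without Ad-GFP replicate 2. With arrays centred on their median the Trappc10 difference shrank to -0.22. Its TRAPPII partner Trappc9 read 5.63, 6.30 and 5.98 against 5.36, 5.44 and 5.53, a difference of -0.53 (95% interval -0.97 to -0.08, adjusted p = 0.066) that did not pass although no arrays overlapped.

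TRAPP was the group whose counts depended most on the arrays numbered 1. Without both of them, 3 TRAPP genes rose and 7 fell, while COG had 4 and 0, the golgins 8 and 0, and the exocyst 0 and 5. More genes were called throughout in that fit, since 4377 of all genes rose and 4765 fell, in place of 3615 and 3427. TRAPP was also the group whose direction turned with the scaling, since its median was -0.14 as deposited and 0.01 with each array centred on its own median.

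The Trappc2 promoter lies at chrX:166440505-166440754 on the plus strand. It is shown because Trappc2 rose and because it held matches to 2 motifs, TGACG at 68 to 64 bases before the start and GCCACGT at 35 to 29 bases before it.
Trappc2: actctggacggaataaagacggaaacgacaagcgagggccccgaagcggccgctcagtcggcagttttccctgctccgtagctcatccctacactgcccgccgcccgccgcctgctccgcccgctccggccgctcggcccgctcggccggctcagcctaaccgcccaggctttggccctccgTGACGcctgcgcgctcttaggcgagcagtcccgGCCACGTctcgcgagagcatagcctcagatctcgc

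The exocyst gave the largest single change among the 37 genes. Exoc4 encodes Sec8, a core subunit. It was at 8.59, 9.26 and 9.22 on the Ad-GFP arrays and at 7.08, 7.24 and 7.25 on the Ad-nuclear CREBH arrays. The groups lay over 1 log2 unit apart, and Exoc4 fell by 1.83 (SE 0.19, adjusted p = 1.8e-04), to 0.281 of the control level. It passed in all 6 fits with 1 array left out.

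Exoc7 and Exoc1 encode Exo70 and Sec3, the subunits that bind phosphoinositide lipids of the plasma membrane. Exoc7 was at 7.22, 7.49 and 7.25 against 6.48, 6.87 and 6.61 and fell by 0.67 (SE 0.16, adjusted p = 0.0119). Its adjusted p rose to 0.0533 without Ad-GFP replicate 2 and to 0.0518 without Ad-nuclear CREBH replicate 3. Exoc1 was at 7.57, 7.42 and 7.50 against 7.06, 7.05 and 7.09 and fell by 0.43 (SE 0.13, adjusted p = 0.0277). Although its groups were tight, the Exoc1 call was lost without Ad-GFP replicate 2 or 3 or Ad-nuclear CREBH replicate 2 or 3, with an adjusted p of at most 0.0974, and with arrays centred on their median (adjusted p = 0.13), quantile normalization (adjusted p = 0.059) and cyclic loess (adjusted p = 0.101).

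The other 4 subunits did not pass. Exoc6, whose product Sec15 binds Rab11, read 7.08, 7.66 and 7.69 against 7.17, 6.77 and 6.66, a difference of -0.61 (95% interval -1.11 to -0.11, adjusted p = 0.0596). Its replicate 1 arrays were nearly equal while replicates 2 and 3 lay about 1 log2 unit apart. Without both arrays numbered 1 Exoc6 fell by 0.96 (adjusted p = 3.0e-05). That fit had replicates 2 and 3 of each group alone and left out the arrays that were nearly equal. Exoc2 and Exoc8 encode the subunits that bind Ral GTPases. Exoc2 was at 8.03, 8.06 and 8.03 against 7.88, 7.76 and 7.86, a difference of -0.20 (95% interval -0.47 to 0.07, adjusted p = 0.225). Exoc8 differed by -0.04 (95% interval -0.50 to 0.42, adjusted p = 0.893), a difference whose sign turned under 3 other scalings. Exoc3, which encodes Sec6, was at 7.44, 7.62 and 7.58 against 7.23, 7.47 and 7.50, a difference of -0.15 (adjusted p = 0.471). All 7 exocyst differences were negative, beside 8462 of the 18820 genes tested. Of the 7, 3 passed the test, beside 18.2% of all genes that fell.

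**Figure D2:**
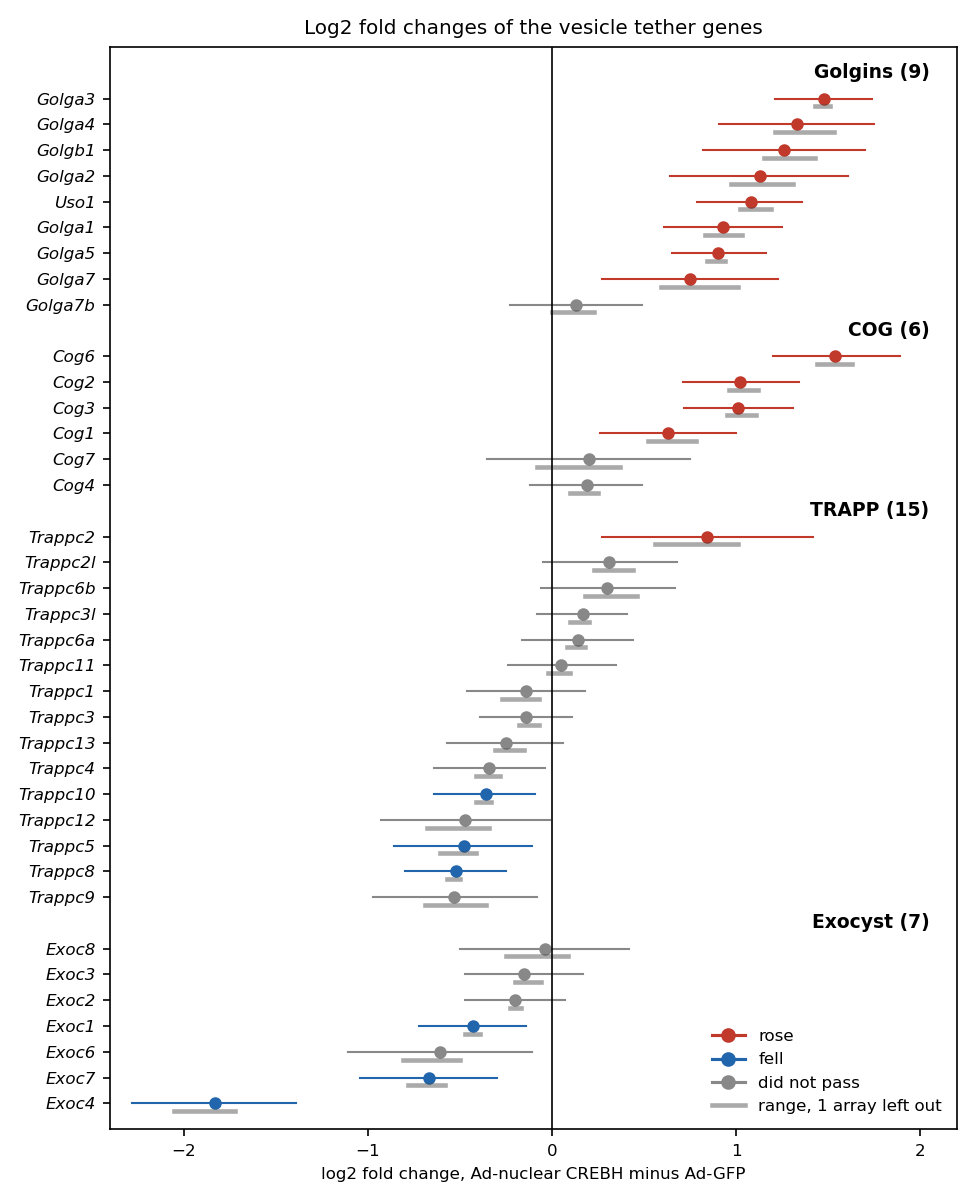
Log2 fold change (Ad-nuclear CREBH minus Ad-GFP, horizontal axis) of each of the 37 tether genes as a point with its 95% interval, coloured by whether it rose, fell or did not pass in limma, and below it a grey bar for the range of values with 1 array left out. Golgins and COG subunits lie to the right of 0, exocyst subunits to the left with Exoc4 at -1.83, and TRAPP genes on both sides.

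Other tethers and the partners on which tethers act were read from lists of names. Of 12 other golgins and Golgi matrix genes, 8 rose and 1 fell, beside 19.2% and 18.2% of all genes. Their median log2 fold change was 0.67, beside 0.039 over all genes. Trip11, which encodes the cis-Golgi golgin GMAP-210, was at 7.53, 7.40 and 7.56 with Ad-GFP and 9.05, 9.30 and 9.24 with Ad-nuclear CREBH, a rise of 1.70 (adjusted p = 4.0e-05). Gorasp2, a Golgi stacking protein, rose by 1.36 (adjusted p = 4.0e-05). Gcc2, a trans-Golgi golgin, moved the other way by -0.48 (adjusted p = 0.0116), a call lost with arrays centred on their median (adjusted p = 0.0537) and without Ad-GFP replicate 3 or Ad-nuclear CREBH replicate 2 or 3.

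The NRZ complex tethers vesicles returning from the Golgi to the endoplasmic reticulum, and all 3 of its subunits rose. Zw10 went from 6.62, 6.43 and 6.91 to 8.74, 8.64 and 8.63, a rise of 2.01 (adjusted p = 4.4e-05). Nbas rose by 1.55 (adjusted p = 8.0e-05) and Rint1 by 0.55 (adjusted p = 0.0205), a call lost without Ad-GFP replicate 2 or Ad-nuclear CREBH replicate 1 or 2 (adjusted p at most 0.0761). Tethers of endosomes and lysosomes were called in both directions, and the GARP, EARP, HOPS and CORVET counts lay near the 19.2% of all genes that rose and the 18.2% that fell. Of the 5 GARP and EARP subunits, which tether vesicles from endosomes, 1 rose (Vps50, 0.52, adjusted p = 0.0245) and 1 fell (Vps53, -0.56, adjusted p = 0.034), and neither call held in every fit with 1 array left out. That of Vps50 held without Ad-GFP replicate 1 or Ad-nuclear CREBH replicate 2, and that of Vps53 without Ad-GFP replicate 1. Of the 8 HOPS and CORVET subunits, which act at late endosomes and lysosomes, 1 rose (Vps33a, 0.68, adjusted p = 0.0149) and 1 fell (Vps18, -0.68, adjusted p = 0.0439), and again neither call held in every such fit. That of Vps33a was lost without Ad-nuclear CREBH replicate 2 or 3, and that of Vps18 held in the fit without Ad-GFP replicate 1. The Vps18 call was also lost with arrays centred on their median (adjusted p = 0.0559) and with cyclic loess (adjusted p = 0.0831). Of 8 endosomal tethers 4 rose and 3 fell. Hook1, a coiled-coil adaptor of microtubule transport, rose by 1.71 (adjusted p = 2.2e-05). Eea1, the early endosome tether that Rab5 recruits, was at 10.17, 8.96 and 8.87 with Ad-GFP and 8.24, 7.77 and 7.76 with Ad-nuclear CREBH and fell by 1.41 (adjusted p = 0.011). Rabep1, which also binds Rab5, fell by 1.13 (adjusted p = 2.2e-04).

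Exoc6b, a paralog of Exoc6, fell like the exocyst subunits that passed. It was at 7.70, 8.42 and 8.18 against 6.01, 6.36 and 6.47 and fell by 1.82 (adjusted p = 3.4e-04), a size close to that of Exoc4. The other 2 exocyst paralogs measured did not pass.

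Of 20 SNAREs and their SM partners that tethers bind, 14 rose and 3 fell, with a median of 0.92. The SM proteins assist SNARE pairing. Scfd2, an SM family member, rose by 2.25 (adjusted p = 2.2e-05), and Vamp8, a SNARE of endosomes and of regulated secretion, rose by 2.15 (adjusted p = 1.8e-05). The SNAREs that fell most were Stx4a, a syntaxin of the plasma membrane where the exocyst acts, by 0.61 (adjusted p = 0.0095), and Vti1a by 0.55 (adjusted p = 0.00912). Of 18 small GTPases that tethers bind or activate, 6 rose and 2 fell, beside 19.2% and 18.2% of all genes. Rab30, a Golgi Rab, went from 6.78, 5.44 and 6.41 to 9.51, 9.25 and 9.25, a rise of 3.13 (adjusted p = 1.4e-04). Arl1, which recruits Golga1 and Golga4, rose by 1.13 (adjusted p = 4.6e-05). Arfrp1, which acts ahead of Arl1, fell by 0.58 (adjusted p = 0.0299) and Rab10 by 0.39 (adjusted p = 0.0327), both calls that were lost with arrays centred on their median. The Arfrp1 call was also lost with quantile normalization (adjusted p = 0.0541) and cyclic loess (adjusted p = 0.0688). With 1 array left out, Arfrp1 passed without Ad-nuclear CREBH replicate 1 alone and Rab10 without Ad-nuclear CREBH replicate 2 alone. Centring the arrays on their median moved the GTPase count to 8 that rose and 0 that fell.

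**Figure D3:**
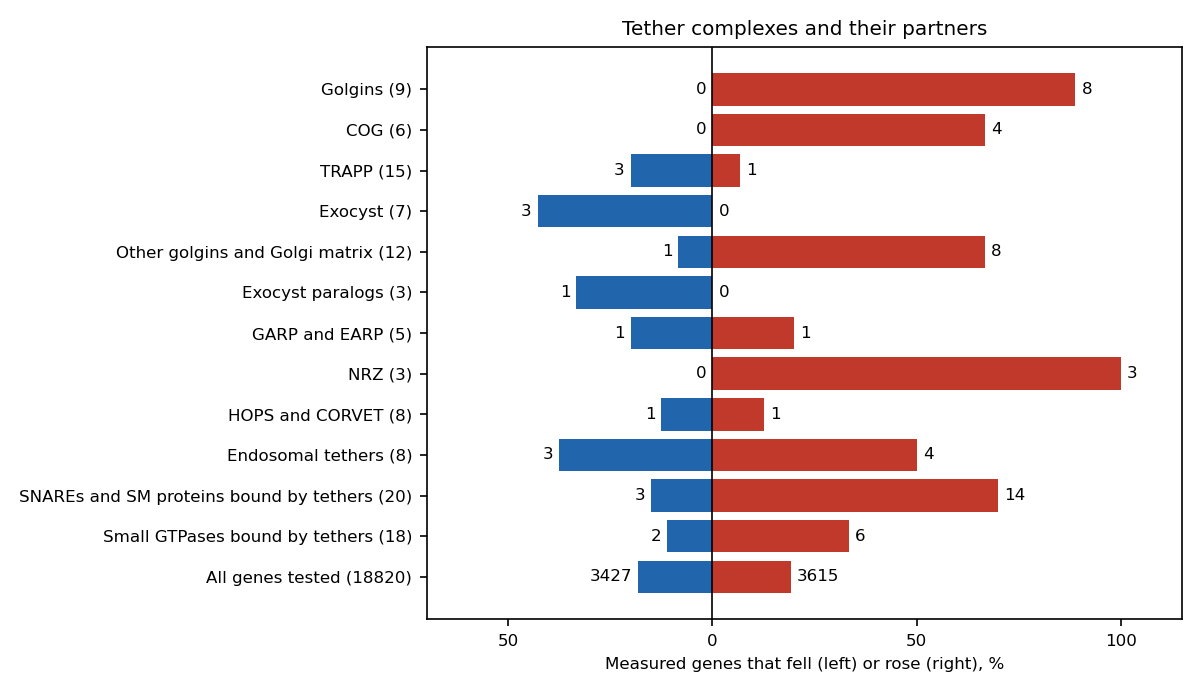
Share of measured genes, in percent, that fell (blue, left of 0) or rose (red, right of 0) at an adjusted p under 0.05 in limma, for each group of tethers, each list of other tethers and partners, and all genes tested, with the number measured in parentheses and the number called at each bar. NRZ (3 of 3), the golgins (8 of 9) and the SNAREs with SM proteins (14 of 20) have the longest bars to the right, and the exocyst (3 of 7) has the longest bar to the left.

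Motifs were counted in the promoters, a description of letters and not of bound sites. The table listed a promoter for 30 of the 37 genes and for 14739 of all genes measured. The full cAMP response element TGACGTCA was in 0 of the 30 promoters, against 2.39% of all, and its core TGACG was in 8 (26.7%), against 24.2%. The 8 were those of Cog2, Cog7, Exoc3, Exoc8, Golga1, Golga5, Trappc2 and Trappc6a, of which 4 rose and 4 did not pass. The core also lies within the full element and within the unfolded protein response element TGACGTGG, which was in 0 of the 30 against 0.787%. The endoplasmic reticulum stress elements known as ERSE and ERSE-II were in 0 of 30, against 0.129% and 0.0475%, and the lysosomal element TCACGTGA in 0, against 1.25%.

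The Golgi stress element ACGTGGC, a motif bound by the factor TFE3 when the Golgi is overloaded, was in 3 of the 30 promoters (10.0%), against 2.94% of all. The 3 were those of Cog3, Trappc2 and Uso1, and all 3 genes rose, as did 10 of the 30 genes with a promoter listed. The stretches around the matches are shown to let the flanks be compared, and were chosen after the matches were seen. Each match is in capitals and reads as the reverse complement, GCCACGT, on the gene's strand. Cog3 lies at chr14:75754594-75754630 on the minus strand, Trappc2 at chrX:166440705-166440741 on the plus strand, and the overlapping Uso1 stretches at chr5:92137866-92137902 and chr5:92137876-92137912 on the plus strand.
Cog3: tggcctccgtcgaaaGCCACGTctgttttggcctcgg
Trappc2: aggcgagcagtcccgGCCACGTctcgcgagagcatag
Uso1, first match: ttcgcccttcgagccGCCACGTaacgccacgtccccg
Uso1, second match: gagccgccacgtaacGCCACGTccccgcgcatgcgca

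The Cog3 match lies 122 to 116 bases before the start, that of Trappc2 35 to 29 bases, and those of Uso1 57 to 51 and 47 to 41 bases. Outside the motif the 3 genes' stretches were not aligned or tested.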

How the data were processed

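Expression was measured with Mouse Gene 1.1 ST arrays in 6 dishes, 3 per group, and groups came from the sample labels. The values the authors deposited are on a log2 scale and come from RMA, whose steps are background correction, normalization between arrays and summary of probes, and they were used unchanged. The submitters' processing notes name RMA without its version. Values carry no flag for background. Changes of dim genes may be understated, which was not tested, and precision is limited by the number of arrays. Of 35556 features, 21218 carried 1 gene symbol, 1881 several and 12457 none. Only the first kind was used, with the feature of highest mean kept for genes with several (3 of the 37 tether genes).

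The contrast Ad-nuclear CREBH minus Ad-GFP was fitted without covariates by limma 3.58.1 under R 4.3.3, using lmFit and then eBayes with an intensity trend, and the procedure was tested on simulated data. Adjusted p-values are Benjamini-Hochberg over 18820 genes. An exact permutation test of 3 against 3 arrays cannot go below 0.1, so none is given. The tether genes, lists and tests were chosen with earlier results of these data known. Every tether gene is named. Values on each array are given for the largest changes of each complex that passed, the highest of those that did not, and paralog pairs, and were added for Uso1, Exoc6 and Trappc9 after their values were seen. Up to 2 rises and 2 falls are named per list, and Rint1, Lyz2 and Col1a1 were added after their values were seen. Array values are given for a few of these. Alternatives were other variance models, array weights, the replicate block, other scalings, the mean of a gene's features, a level filter, stricter thresholds and leaving out arrays. Promoters were read from a RefSeq table (GRCm38.p6), and 7 tether genes have none in it (Golga4, Golga7, Golgb1, Trappc1, Trappc4, Trappc8 and Trappc9). Figures were drawn with matplotlib 3.10.9.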

Additional observations from a re-analysis of the deposited data

How the results depend on the processing

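The rises of Golga1 to Golga5, Golgb1, Uso1, Cog2, Cog3 and Cog6 and the falls of Exoc4 and Trappc8 passed under every alternative fit at an adjusted p under 0.05. Of 627 values of tether genes under alternatives, 551 kept their direction and side of the threshold, 35 no longer passed, 29 came to pass and 12 changed sign, and none of these 12 belonged to a gene that had passed.

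Counts moved by over 1.5 times mostly in TRAPP and the exocyst. The number of tether genes that fell, 6, was 11 with array weights, 3 with arrays centred on their median, 2 at an adjusted p under 0.01, 1 by the study's criteria, 12 without both arrays numbered 1, and 2 to 11 with 1 array left out. The lowest, 2, came without Ad-GFP replicate 2 or Ad-nuclear CREBH replicate 3, and the highest, 11, without Ad-GFP replicate 1. The 13 that rose became 7 by the study's criteria, and the 8 golgins became 4. The 1 TRAPP gene that rose became 3 with array weights, 2 with centring, 3 without both arrays numbered 1, 0 at an adjusted p under 0.01 or by the study's criteria, and 0 to 2 with 1 array left out. The 3 TRAPP genes that fell became 7, 1, 7, 1 and 0 under array weights, centring, loss of both arrays numbered 1, an adjusted p under 0.01 and the study's criteria, and 1 to 7 with 1 array left out. The 3 exocyst subunits that fell became 5 without both arrays numbered 1, 1 at an adjusted p under 0.01 or by the study's criteria, and 1 to 4 with 1 array left out. The background moved in the same fits. Among all genes, 3427 fell in the main fit, 4595 with array weights, 2852 with centring and 4765 without both arrays numbered 1. Dropping 1 array gave 2637 to 4043 falls and 2877 to 3764 rises, in place of 3615 rises. The tether counts of each fit are to be read against these numbers.

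Centring shifted the all-gene median from 0.039 to 0.181 on the log2 scale, with 4814 genes that rose and 2852 that fell in place of 3615 and 3427, and 14 tether genes rose. The TRAPP median was 0.01 with centring, -0.28 with quantile normalization and -0.27 to -0.11 with 1 array left out. That of COG was 0.97 with centring, 0.90 with array weights, 0.65 with the mean of features, 0.93 without both arrays numbered 1 and 0.76 to 0.91 with 1 array left out. That of the exocyst was -0.29 with centring and -0.32 with cyclic loess. That of the golgins was 1.22 with centring, 1.16 with array weights, 0.91 with quantile normalization, 0.94 with cyclic loess, 1.18 without both arrays numbered 1 and 0.97 to 1.15 with 1 array left out. The signs that turned were those of Cog7 (-0.08 to 0.37 with 1 array left out, the former without Ad-GFP replicate 1, and -0.01 without both arrays numbered 1), Exoc8 (0.10 with centring, 0.12 with quantile normalization, 0.13 with cyclic loess, -0.25 to 0.09 with 1 array left out, positive without Ad-GFP replicate 2 or 3), Trappc1 and Trappc3 (each 0.01 with centring) and Trappc11 (-0.03 with array weights, -0.02 to 0.10 with 1 array left out, the former without Ad-nuclear CREBH replicate 1, and -0.06 without both arrays numbered 1). The cause of these moves was not tested.

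Replicate numbers are shared between the groups. Deviations of same-numbered arrays correlated at 0.178, 0.0729 and 0.139, and those of arrays with different numbers at -0.173 to 0.12. The labels do not say that the numbers pair the dishes, so the main fit had no block. Whether same-numbered arrays shared their handling was not tested. With the replicate block 13 tether genes rose and 6 fell, 18 of the 19 being shared, with Trappc5 lost (adjusted p = 0.0544) and Trappc12 gained (adjusted p = 0.0427), and 3715 and 3705 of all genes passed. Ad-GFP replicate 2 correlated best with Ad-nuclear CREBH replicate 3, at 0.08.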
